A study of Mus musculus with 6 samples.

Results

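The mitotic spindle and G2/M genes are 51 genes whose products drive a cell from the end of DNA replication through chromosome segregation and cytokinesis. They were listed by symbol for their known function, at a time when earlier results of these data were known. Each was read from the probe set with the highest mean over the 6 arrays. Of the 51 listed genes 48 could be read, among 12393 genes with a probe set of 1 symbol on the array. Ccnb1, Cdkn3 and Cdca8 had no probe set under their symbol in the platform annotation used here and are not analysed. The samples were regulatory T cells (Treg), a suppressive lineage of CD4+ T cells marked by Foxp3, taken from mice as the magnetically separated CD4+CD25+ fraction. Total RNA of 3 wild type C57BL/6 samples and of 3 HDAC9-/- samples, also of the C57BL/6 strain, was hybridised to 1 Affymetrix array each; HDAC9 is a class IIa histone deacetylase. The labels name no treatment, and the sources used here do not give the age of the mice, the allele or whether mice were pooled. All levels and differences below are on the log2 scale, and differences are HDAC9-/- minus wild type. Values per array are listed in the order of replicates 1, 2 and 3. Each difference was tested with limma, and a gene was called at an adjusted p below 0.05 over all probe sets.

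Entry into mitosis depends on cyclin-dependent kinase 1 (Cdk1) bound to cyclins A2 and B, which builds up after DNA replication. The spindle then captures chromosomes at kinetochores, the checkpoint holds the anaphase-promoting complex until all are attached, and degradation of securin and cyclin B lets the cell divide. Most of these genes are silent in resting cells and are transcribed together late in the cycle: the DREAM complex represses them in quiescence, and B-Myb and Foxm1 activate them with the MuvB core. Treg include a cycling fraction even in unchallenged mice, so the bulk level of these transcripts can vary with the number of dividing cells in a sample. In RNA from whole samples, a change in the number of such cells and a change of RNA per cell cannot be told apart.

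MuvB reads the cell cycle genes homology region (CHR), whose usual letters are TTTGAA, and NF-Y reads CCAAT boxes beside it; both letters were sought in the promoters, as was GCGGGAA, a core of E2F sites that is known from S phase genes. Windows of 300 bases, 250 before and 50 from the gene start, came from RefSeq (GRCm38.p6). They covered 42 of the 51 genes with 44 windows, and Aurkb, Ccna2, Foxm1, Incenp, Kif20a, Pbk, Smc4, Stmn1 and Tpx2 had no entry. Both strands were searched, and none of the 3 words contains another. The upstream 150 bases of 7 genes on which the results below turn are printed 5′ to 3′ on the gene's strand, with these letters or their reverse complement in capitals. Cdk1 (chr10:69352913-69353062, minus strand), Mki67 (chr7:135716380-135716529, minus strand), Top2a (chr11:99024190-99024339, minus strand) and Smc2 (chr4:52439071-52439220, plus strand) hold both a CHR and a CCAAT box in the stretch shown. Bub1 (chr2:127831860-127832009, minus strand) holds CCAAT boxes only, and Mad2l1 (chr6:66535071-66535220, plus strand) and Birc5 (chr11:117849087-117849236, plus strand) hold none of the 3 words in the whole window.
Cdk1: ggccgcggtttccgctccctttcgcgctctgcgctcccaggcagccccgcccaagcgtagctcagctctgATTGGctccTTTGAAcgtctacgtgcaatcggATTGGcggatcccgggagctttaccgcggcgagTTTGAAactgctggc
Mki67: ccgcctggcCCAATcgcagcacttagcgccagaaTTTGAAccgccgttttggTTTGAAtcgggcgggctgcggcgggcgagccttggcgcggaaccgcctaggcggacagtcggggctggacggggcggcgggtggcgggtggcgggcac
Top2a: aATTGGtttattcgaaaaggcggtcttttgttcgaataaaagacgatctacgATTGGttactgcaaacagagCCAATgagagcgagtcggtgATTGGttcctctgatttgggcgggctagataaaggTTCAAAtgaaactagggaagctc
Smc2: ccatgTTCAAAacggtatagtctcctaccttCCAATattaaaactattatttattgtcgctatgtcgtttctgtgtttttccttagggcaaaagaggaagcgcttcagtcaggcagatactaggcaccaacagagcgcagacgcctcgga
Bub1: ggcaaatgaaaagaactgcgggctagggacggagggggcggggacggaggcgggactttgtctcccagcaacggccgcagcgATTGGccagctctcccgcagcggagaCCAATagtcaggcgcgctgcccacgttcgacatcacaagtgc
Mad2l1: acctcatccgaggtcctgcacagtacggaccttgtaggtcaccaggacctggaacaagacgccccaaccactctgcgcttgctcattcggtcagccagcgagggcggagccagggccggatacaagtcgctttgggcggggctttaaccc
Birc5: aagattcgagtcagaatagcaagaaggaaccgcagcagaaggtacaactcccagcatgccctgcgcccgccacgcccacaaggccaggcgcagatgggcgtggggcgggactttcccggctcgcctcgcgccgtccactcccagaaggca

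TTTGAA was present in 31 of the members' 44 windows (70.5%), against 17.9% of all 32851 promoters of that length and 12.9% of the 12566 windows of genes on the array. CCAAT was present in 33 windows (75%), against 37.4% of all promoters, and both words stood together in 28 windows (63.6% against 6.95%). GCGGGAA was found in 1 window (2.27%, against 4.6% of all promoters), while 18 of 43 windows of DNA replication and S phase genes held it (41.9%). The CHR matches stood at 37 distinct genomic sites, of which 26 lay within 50 bases of a gene start; Ect2 and Prc1 each had a pair of overlapping windows, so that the 44 windows hold 40 matches. The letters did not sort the members by their difference between genotypes: the median difference was 0.28 over 27 measured members with a CHR and 0.29 over 12 without. A match describes the letters only, and binding was not measured here.

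**Figure D1:**
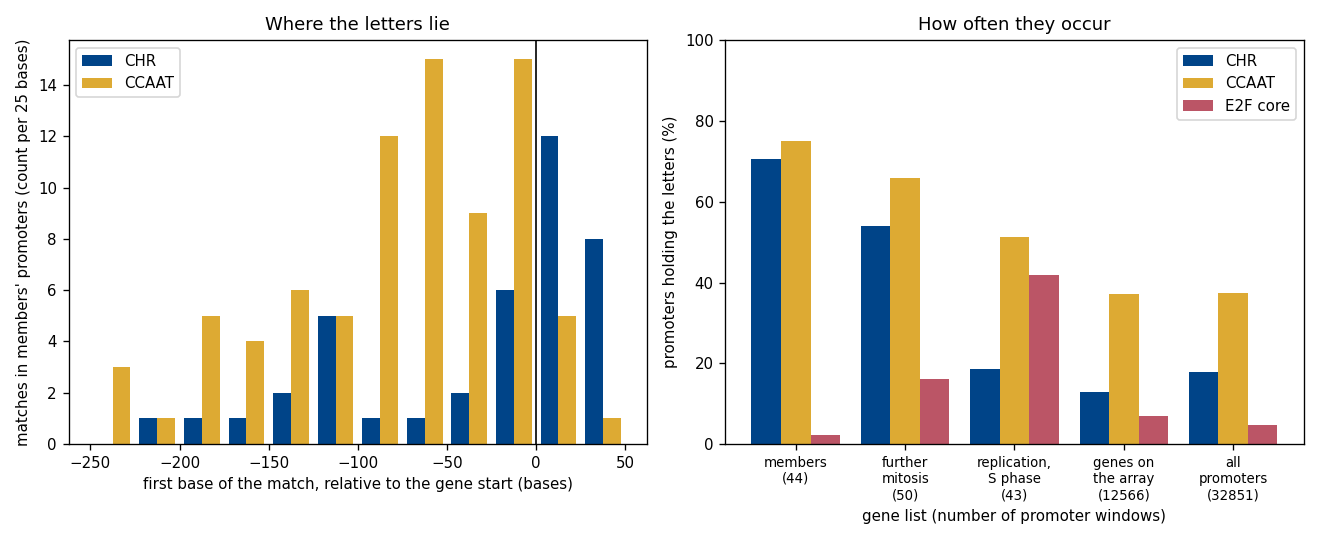
Left, counts per 25 bases of CHR (TTTGAA) and CCAAT matches in the members' 44 promoter windows, against distance from the gene start in bases, with sites in the overlapping windows of Ect2 and Prc1 counted in each. Right, percent of promoter windows that hold CHR, CCAAT or the E2F core (GCGGGAA) for 5 sets of windows; CHR is in 70.5% of the members' windows and 17.9% of all promoters.

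The arrays were alike in overall signal, with array medians of 5.69 to 5.81. Wild type replicate 3 had the lowest median and the lowest mean correlation with the other arrays (0.9912, against 0.9944 to 0.9957). For Gapdh, the 3-prime control probe set exceeded the 5-prime one by 0.03 to 0.11 on wild type and by 0.15 to 0.28 on HDAC9-/- arrays, a gap that widens with RNA breakdown; for actin the same gap was 0.33 to 0.46 on wild type and 0.42 to 0.60 on HDAC9-/- arrays, with overlap. Several markers of the label were bright: Foxp3 read 10.34 ± 0.046 (wild type) and 10.37 ± 0.055 (HDAC9-/-; SD, n = 3). Cd3e and Cd4 read 11.83 and 9.90 in wild type. Ikzf2, another Treg marker, was dim, with a wild type mean of 4.87. Some markers of other cells were about as bright as Foxp3 or brighter. Their wild type means were 11.99 for Jchain (plasma cell), 10.99 for S100a8 (myeloid) and 10.32 for Gzma (CD8 T and natural killer cell). Others were dim, such as Mpo (4.21) and Hba-a1 (3.63). The purity of the samples was not tested. The 1 probe set of Hdac9 was dim on every array (3.50 to 4.10), and since the sources used here do not name the deleted exons it cannot check the genotype labels. The labels call the samples independent without tying each to a mouse, so the p-values reflect only sample-to-sample spread, which may be technical.

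Mitotic genes read slightly higher in HDAC9-/- Treg as a group, and no single one passed the test. Of 48 measured members 45 had a positive difference, where 54% of all genes did, and the median difference was 0.27, against 0.013 over all genes. None was called (smallest adjusted p = 0.342, for Aurka), beside 3 of 22626 probe sets on the whole array (0.0133%). At an unadjusted p below 0.05, 25 members were higher and 0 lower, where 6.12% of all genes were higher and 2.62% lower. The 3 HDAC9-/- arrays all lay above the 3 wild type arrays for 29 members and below them for 1, shares that were 12.5% and 5.7% over all genes. Bright genes leaned upward on these arrays in general: of genes at or above the median brightness 61.3% had a positive difference, their median was 0.034 and 18.8% lay above without overlap. Of the 31 members that bright, 29 had a positive difference, 22 lay above without overlap, and the median was 0.26.

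**Figure D2:**
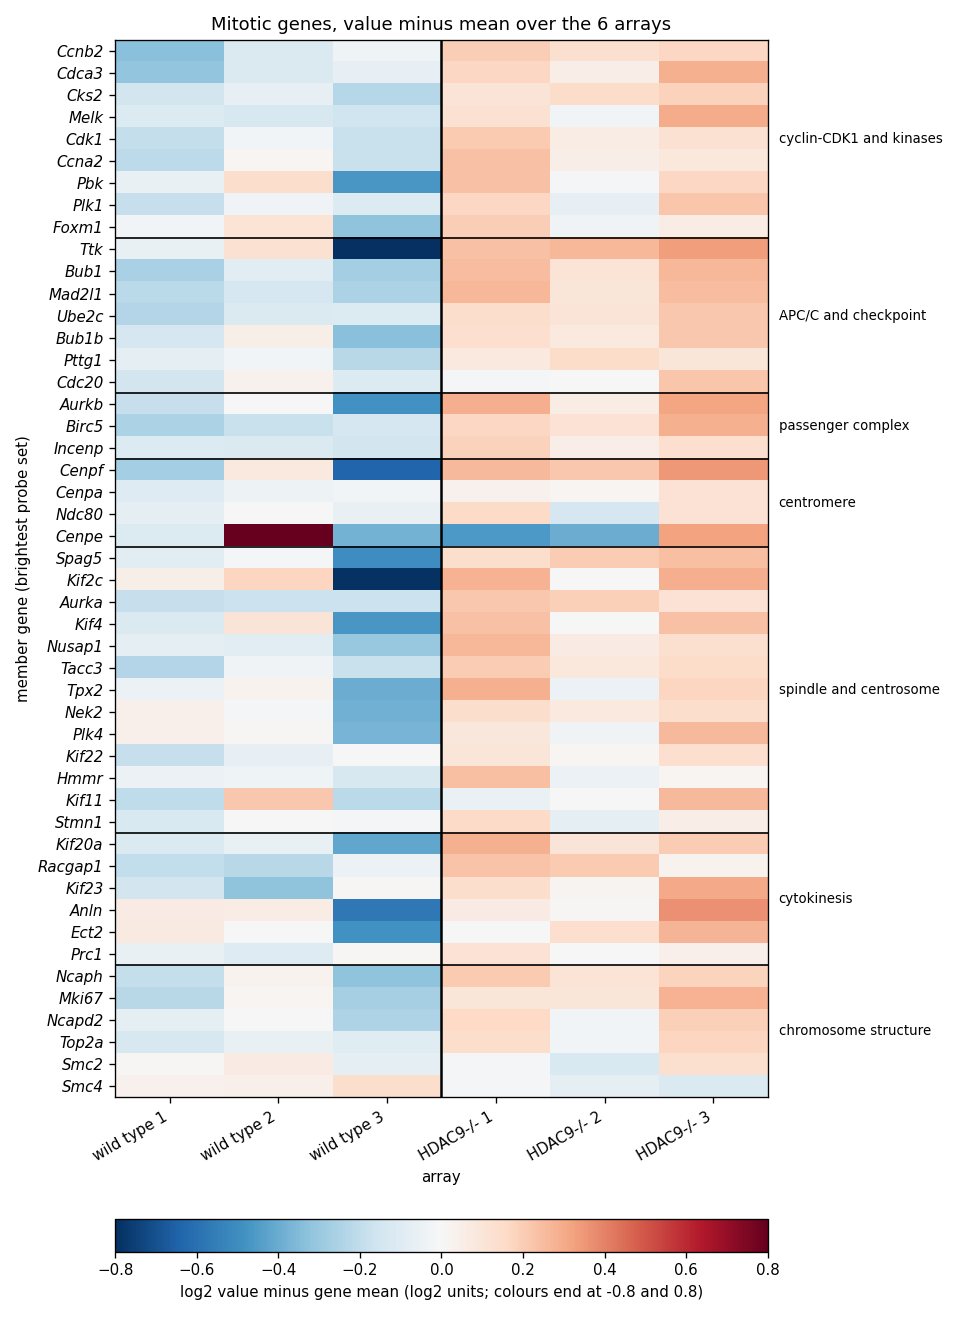
Colour shows each measured member's log2 value minus its mean over the 6 arrays, with genes in rows grouped by role and arrays in columns; colours end at 0.8 either way. HDAC9-/- columns are mostly red and wild type columns mostly blue, with the darkest blue in wild type replicate 3 and pale colours in wild type replicate 2.

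Members of the cyclin-CDK1 engine and its kinases had positive differences in 9 of 9 cases, with a median of 0.26. Cks2, the small subunit that docks Cdk1 onto its substrates, read 9.87, 9.95 and 9.79 on the wild type arrays and 10.12, 10.16 and 10.20 on the HDAC9-/- arrays. Its difference was 0.29 (standard error 0.071, adjusted p = 0.422 by limma). All HDAC9-/- arrays of Cks2 lay above all wild type arrays, and its second probe set did so too, at 9.65 and 9.88. Ccnb2, which encodes cyclin B2, read 7.17 ± 0.16 (wild type) and 7.50 ± 0.035 (HDAC9-/-; SD, n = 3), a difference of 0.33 (standard error 0.092, adjusted p = 0.449 by limma), with its highest wild type array at 7.30 and its lowest HDAC9-/- array at 7.46. Cdk1 itself read 7.08, 7.25 and 7.09 on the wild type arrays and 7.48, 7.33 and 7.39 on the HDAC9-/- arrays, with a difference of 0.26 (95% confidence interval 0.07 to 0.45, limma, adjusted p = 0.495). Both were higher without overlap, Cdk1 by a narrow margin between wild type replicate 2 and HDAC9-/- replicate 2. Foxm1, the transcription factor of G2/M genes, read 6.15, 6.28 and 5.85 on the wild type arrays and 6.37, 6.14 and 6.23 on the HDAC9-/- arrays. Its groups overlapped, its difference was 0.15 (95% confidence interval -0.15 to 0.45, limma, adjusted p = 0.729), and its 3 other probe sets had differences of 0.19, 0.033 and 0.012. The Foxm1 difference was 0.03 without wild type replicate 3, 0.089 without HDAC9-/- replicate 1, 0.24 without wild type replicate 2 and 0.043 with array weights. The other 5 members of the group, Ccna2 (cyclin A2), Cdca3, the polo kinase gene Plk1, Melk and Pbk, had differences of 0.21 to 0.33, and 3 of them did not overlap.

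The spindle checkpoint and anaphase-promoting complex group had positive differences for 7 of 7 members, with a median of 0.31. Mad2l1 encodes Mad2, the checkpoint protein that holds back Cdc20 at unattached kinetochores, and it read 8.17, 8.25 and 8.13 on the wild type arrays and 8.65, 8.48 and 8.63 on the HDAC9-/- arrays. Bub1, the kinase that recruits the checkpoint to kinetochores, read 6.84, 7.01 and 6.83 on the wild type arrays and 7.35, 7.21 and 7.37 on the HDAC9-/- arrays. For both genes the lowest HDAC9-/- array, replicate 2, stood clear of the highest wild type array, also replicate 2. Their differences were 0.40 (standard error 0.077, adjusted p = 0.377 by limma) for Mad2l1 and 0.42 (standard error 0.085, adjusted p = 0.398 by limma) for Bub1. The dim second probe set of Bub1 differed by 0.085 with overlap, and the mean of both by 0.25. Cdc20, the activator that the checkpoint restrains, read 8.22, 8.40 and 8.26 on the wild type arrays and 8.36, 8.37 and 8.59 on the HDAC9-/- arrays, and its groups overlapped. Its difference was 0.15 (95% confidence interval -0.073 to 0.37, limma, adjusted p = 0.655), and it was 0.072 without HDAC9-/- replicate 3. Its other probe sets differed by 0.22 without overlap and 0.078 with overlap. Ube2c, the ubiquitin-conjugating enzyme of the complex, Pttg1 (securin), Bub1b (BubR1) and Ttk (the Mps1 kinase) had differences of 0.21 to 0.55 and none overlapped. The largest was that of Ttk, whose wild type arrays read 5.31, 5.49 and 4.47.

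The chromosomal passenger complex, which corrects faulty attachments and later directs cleavage, had positive differences for its 3 measured subunits and no overlap in any. Birc5 (survivin) read 7.70, 7.78 and 7.82 on the wild type arrays and 8.12, 8.07 and 8.24 on the HDAC9-/- arrays, a difference of 0.37 (standard error 0.076, adjusted p = 0.398 by limma). Incenp, the scaffold of the complex, read 9.09, 9.08 and 9.05 on the wild type arrays and 9.38, 9.25 and 9.33 on the HDAC9-/- arrays, a difference of 0.24 (standard error 0.067, adjusted p = 0.442 by limma). The 2 other Incenp probe sets differed by 0.13 and -0.14 with overlap, and the mean of all its probe sets by 0.08. The kinase subunit Aurkb read 5.83, 6.01 and 5.53 on the wild type arrays and 6.30, 6.07 and 6.33 on the HDAC9-/- arrays. Wild type Aurkb values ranged more widely than those of Birc5 and Incenp, and its difference was 0.44 (standard error 0.14, adjusted p = 0.495 by limma). The dimmer Aurkb probe set differed by 0.10 with overlap, and the mean of both by 0.27.

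Centromere and kinetochore genes were mixed, with positive differences for 3 of 4 and a median of 0.10. Cenpf, a kinetochore and nuclear matrix protein that accumulates in G2, read 6.00, 6.35 and 5.64 on the wild type arrays and 6.53, 6.49 and 6.62 on the HDAC9-/- arrays. Its groups did not overlap and its difference was 0.55 (95% confidence interval 0.15 to 0.96, limma, adjusted p = 0.495), but its dimmer probe set went the other way, with wild type at 4.78 ± 0.073 and HDAC9-/- at 4.54 ± 0.11 (SD, n = 3), and the mean of both differed by 0.16. Cenpa, the histone H3 variant of centromeres, read 8.24, 8.30 and 8.32 on the wild type arrays and 8.38, 8.36 and 8.46 on the HDAC9-/- arrays, a small difference of 0.12 without overlap (adjusted p = 0.635). Cenpe, a kinetochore motor, was dim and read 3.86, 4.98 and 3.59 on the wild type arrays and 3.51, 3.57 and 4.29 on the HDAC9-/- arrays. Its negative difference of -0.36 rests on wild type replicate 2: without that array it was 0.06, without wild type replicate 3 -0.63, without HDAC9-/- replicates 1 and 3 -0.22 and -0.61, and with array weights -0.58. With all arrays the interval ran from -1.26 to 0.55. Ndc80, which binds microtubules at the outer kinetochore, differed by 0.089 with overlap.

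Spindle motors, microtubule regulators and centrosome kinases had positive differences for 13 of 13 members, with a median of 0.28. Aurka, the kinase that matures centrosomes and acts on spindle poles, read 6.44, 6.45 and 6.45 on the wild type arrays and 6.84, 6.81 and 6.74 on the HDAC9-/- arrays. Wild type values were nearly identical and every HDAC9-/- value was higher, with a difference of 0.35 (95% confidence interval 0.20 to 0.50, limma, adjusted p = 0.342) that is 1.27-fold. Tacc3, an Aurka substrate that stabilises spindle microtubules, read 6.22, 6.43 and 6.28 on the wild type arrays and 6.66, 6.54 and 6.60 on the HDAC9-/- arrays. Its difference was 0.29 (standard error 0.08, adjusted p = 0.442 by limma) without overlap, and its 2 other probe sets differed by 0.23 and 0.31. Kif11, the Eg5 motor that pushes spindle poles apart, read 6.26, 6.68 and 6.25 on the wild type arrays and 6.41, 6.46 and 6.72 on the HDAC9-/- arrays. Wild type replicate 2 of Kif11 exceeded 2 HDAC9-/- arrays, and the difference was 0.13 (95% confidence interval -0.21 to 0.48, limma, adjusted p = 0.783). Leaving out wild type replicate 1, 2 or 3 gave 0.067, 0.28 and 0.061 for Kif11; it was 0.043 without HDAC9-/- replicate 3 and 0.076 with array weights. The 2 other Kif11 probe sets differed by 0.16 and -0.12, and the mean of all by 0.058. The other 10 members of the group (the kinesins Kif2c, Kif4 and Kif22, the microtubule-associated genes Tpx2, Nusap1, Spag5, Hmmr and Stmn1, and the centrosome kinases Nek2 and Plk4) had differences of 0.086 to 0.39, and 4 did not overlap.

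The midzone and cytokinesis genes had positive differences for 6 of 6 members, with a median of 0.30. Racgap1, the GTPase-activating subunit of centralspindlin, read 6.66, 6.64 and 6.81 on the wild type arrays and 7.09, 7.07 and 6.89 on the HDAC9-/- arrays, a difference of 0.31 (standard error 0.087, adjusted p = 0.445 by limma). Its second probe set read 6.32 ± 0.057 (wild type) and 6.73 ± 0.10 (HDAC9-/-; SD, n = 3), also without overlap. Kif20a, a midzone kinesin needed for cleavage, read 6.21, 6.27 and 5.91 on the wild type arrays and 6.61, 6.43 and 6.53 on the HDAC9-/- arrays. Its HDAC9-/- arrays lay above all wild type arrays, with a difference of 0.40 (standard error 0.11, adjusted p = 0.445 by limma). Prc1, which bundles midzone microtubules, read 6.96, 6.92 and 7.03 on the wild type arrays and 7.14, 7.02 and 7.06 on the HDAC9-/- arrays, overlapped between groups and differed by 0.11. It was 0.07 without HDAC9-/- replicate 1 and 0.068 with quantile normalization again, and the direction turned to -0.0065 with the mean of both Prc1 probe sets. Kif23, Anln and Ect2 had differences of 0.27 to 0.30, and Kif23 did not overlap.

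Chromosome structure genes had positive differences for 4 of 6 members, with a median of 0.21, and Smc2 and Smc4 were the exceptions. Mki67, which coats mitotic chromosomes and marks all cycling cells, read 9.12, 9.36 and 9.08 on the wild type arrays and 9.44, 9.44 and 9.62 on the HDAC9-/- arrays. Its difference was 0.31 (95% confidence interval 0.074 to 0.55, limma, adjusted p = 0.505) and its groups did not overlap. Top2a, the topoisomerase that disentangles sister chromatids, read 9.29, 9.36 and 9.32 on the wild type arrays and 9.56, 9.40 and 9.59 on the HDAC9-/- arrays, a difference of 0.19 (standard error 0.075, adjusted p = 0.55 by limma). Wild type replicate 2 and HDAC9-/- replicate 2 of Top2a were close to touching. The other, dim Top2a probe set differed by -0.10 with overlap, and the mean of both by 0.046. Ncaph, a condensin I subunit, read 6.71, 6.93 and 6.58 on the wild type arrays and 7.11, 7.01 and 7.08 on the HDAC9-/- arrays, a difference of 0.33 (standard error 0.10, adjusted p = 0.495 by limma), and its second probe set differed by 0.35, both without overlap. Smc4, the ATPase shared by both condensins, read 11.88, 11.89 and 11.99 on the wild type arrays and 11.83, 11.77 and 11.73 on the HDAC9-/- arrays, a negative difference of -0.14 (95% confidence interval -0.31 to 0.019, limma, adjusted p = 0.601). It was the 1 member whose HDAC9-/- arrays all lay below wild type, and its 2 other probe sets differed by -0.46 and -0.40 with overlap, the mean of all by -0.34. Smc2, its partner ATPase, read 8.01, 8.07 and 7.93 on the wild type arrays and 7.99, 7.88 and 8.13 on the HDAC9-/- arrays and differed by -0.0071 with the interval from -0.21 to 0.20, a sign that turned without wild type replicate 2 (0.025) or HDAC9-/- replicate 2 (0.053). Ncapd2, another condensin I subunit, differed by 0.22 with overlap.

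**Figure D3:**
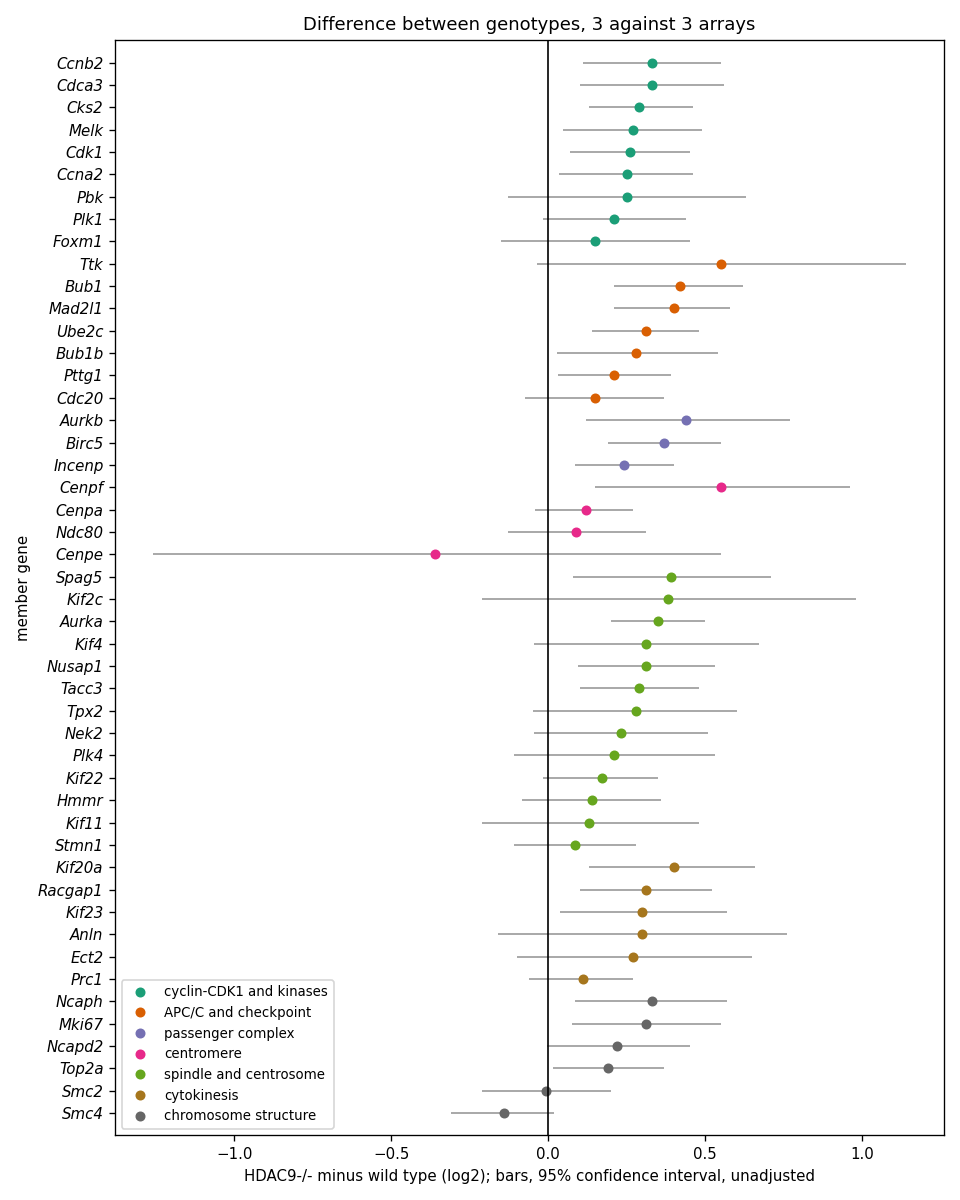
Points give the difference HDAC9-/- minus wild type (log2) of each measured member, coloured by role, and bars its 95% confidence interval from limma without adjustment for many genes. Of 48 points 45 lie to the right of 0; Cenpe, Smc4 and Smc2 lie to the left.

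Members varied together within a genotype as well as between genotypes. Each array was given a score, its members' average deviation from their own means over all arrays. The score was -0.12, -0.00 and -0.25 in wild type and 0.15, 0.04 and 0.19 in HDAC9-/- replicates 1 to 3. The difference between genotype means was 0.25, equal to the span within wild type (0.25), and wild type replicate 2 lay 0.04 below HDAC9-/- replicate 2. Wild type replicate 3 was the lowest array for 27 members and wild type replicate 1 for 14, while HDAC9-/- replicate 3 was the highest for 26 and replicate 1 for 19. Such counts were not made over all genes, and wild type replicate 3 also had the lowest array median (5.69). After subtraction of each genotype's mean, the mean correlation between pairs of members over the 6 arrays was 0.34, against 0.01 for pairs of all genes and 0.09 for pairs of bright genes. It was 0.43 for DNA replication and S phase genes and 0.15 for the further mitosis genes described below. These arrays share their overall signal, and genes are not independent replicates. Of the 48 members 35 followed the mean of the others within genotypes at r above 0.5 (Aurkb 0.99, Kif4 0.98, Bub1b 0.97), and 6 ran against it, among them Racgap1 (-0.78), Smc4 (-0.61) and Aurka (-0.26). Each r rests on 6 arrays, and the share of all genes that would pass the same mark was not computed. Without wild type replicate 3 the group still had 45 positive members, 30 without overlap and 23 higher at an unadjusted p below 0.05, with a median difference of 0.21 and a score difference of 0.19. Leaving out that array lowered Cenpf from 0.55 to 0.37, Aurkb from 0.44 to 0.31, Kif20a from 0.40 to 0.29 and Ncaph from 0.33 to 0.25. Birc5 went from 0.37 to 0.40, and Aurka stayed at 0.35.

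The other probe sets of the same genes were divided. Of all 22626 probe sets tested, 52.2% were positive, the median was 0.0078 and 2489 lay above wild type without overlap. Besides the brightest, 26 members had 43 further probe sets. Of these 43, 25 were positive, 18 were negative, the median was 0.042 and 5 lay above wild type without overlap. At or above the median brightness of all probe sets (5.76) 16 of 20 were positive with a median of 0.16, and below it 9 of 23 with a median of -0.021; this division was chosen after the values were seen. In 14 of the 26 genes every probe set was positive. With the second brightest probe set in place of the brightest, the median of these 26 genes was 0.11 in place of 0.26, and 17 in place of 25 were positive; this alternative was chosen after seeing the data.

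**Figure D4:**
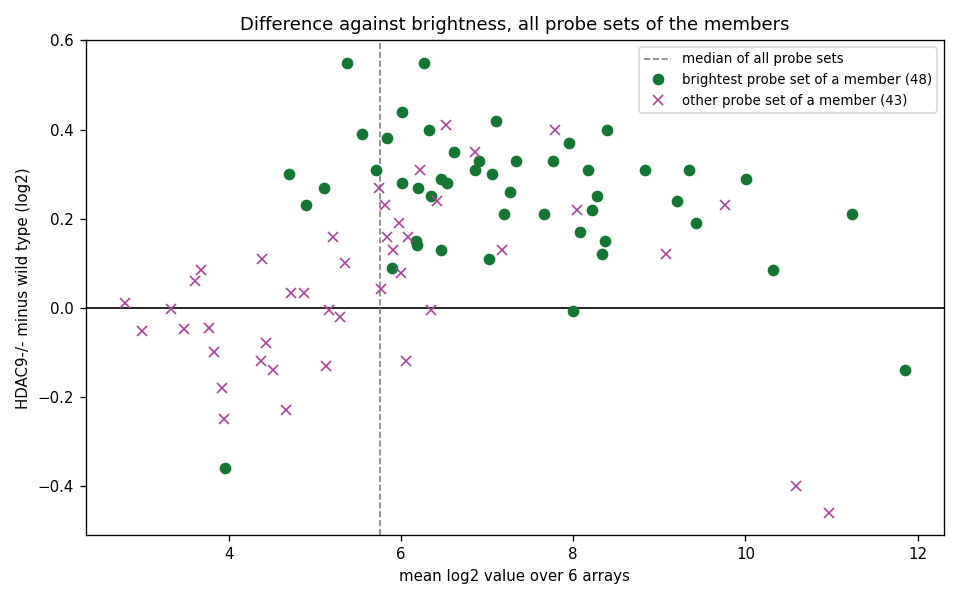
Difference HDAC9-/- minus wild type (log2) against mean log2 value over 6 arrays for the brightest probe set of each member (circles) and the members' other probe sets (crosses); the dashed line is the median of all probe sets (5.76). Crosses to the left of the line scatter around 0, while 16 of 20 to its right are positive, with Smc4 the negative pair at far right.

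Other genes of mitosis and of S phase were mostly positive too. Of 38 measured further mitosis genes that are no members, 32 were positive with a median of 0.20 and 18 lay above wild type without overlap; 0 were called by limma, and at an unadjusted p below 0.05 15 were higher and 1 lower. Cdca5 (sororin), which protects cohesion, read 7.03, 6.84 and 6.65 on the wild type arrays and 7.43, 7.41 and 7.45 on the HDAC9-/- arrays, a difference of 0.59 (standard error 0.10, adjusted p = 0.339 by limma). Mis12, a kinetochore assembly factor, read 6.57, 6.26 and 6.13 on the wild type arrays and 5.85, 5.67 and 5.86 on the HDAC9-/- arrays and was lower without overlap, by -0.53 (adjusted p = 0.422). DNA replication and S phase genes were positive for 39 of 41, with a median of 0.20, 20 above without overlap, 0 called and 16 higher at an unadjusted p below 0.05; Uhrf1, which maintains DNA methylation behind the fork, differed by 0.38 and the primase subunit gene Prim2 by 0.41. Over all genes 54% were positive and 12.5% lay above without overlap. At an unadjusted p below 0.05 by limma, 6.12% of all genes were higher and 2.62% lower. Of genes at or above the median brightness, 61.3% were positive and 18.8% lay above without overlap. Both lists were chosen with earlier results of these data known. Whether the mitotic and S phase lists differ was not tested.

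E2F, DREAM and MuvB regulators were positive for 11 of 14, with a median of 0.037, 1 above without overlap. Rbl2, the p130 protein of the DREAM complex, read 9.46, 9.26 and 9.58 on the wild type arrays and 9.28, 9.09 and 9.27 on the HDAC9-/- arrays, a difference of -0.22 (standard error 0.10, adjusted p = 0.598 by limma) with overlap. The repressive E2F gene E2f8 differed by 0.41 without overlap. Core and associated subunits of the anaphase-promoting complex were positive for 11 of 14 with a median of 0.086. Anapc13 differed by 0.19 and Anapc5 by 0.15. G1 cyclins and kinases were positive for 5 of 9 with a median of 0.0086, Ccne1 being higher by 0.16 and Ccnd3 lower by -0.13. Among 7 cyclin-dependent kinase inhibitors 5 were positive. Cdkn2c (p18) read 8.21, 8.12 and 8.06 on the wild type arrays and 8.61, 8.45 and 8.55 on the HDAC9-/- arrays, a difference of 0.41 (standard error 0.076, adjusted p = 0.362 by limma), and Cdkn2b (p15) differed by 0.22; both lay above wild type without overlap. No gene of these 4 lists was called by limma. At an unadjusted p below 0.05, 1 of 14 subunits of the anaphase-promoting complex and 1 of 7 kinase inhibitors were higher. Over all genes 6.12% were higher at that threshold, 54% were positive and 12.5% lay above without overlap. The 55.6% of G1 genes that were positive were near the share over all genes.

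Markers of other cells were read on the same arrays. Myeloid markers were positive for 18 of 18 genes with a median of 0.36, and their score was -0.62, -0.10 and -0.11 in wild type and 0.32, 0.42 and 0.09 in HDAC9-/- replicates 1 to 3, without overlap. The neutrophil genes Ltf and S100a9 had the smallest p of the list. Ltf read 7.20 ± 0.64 (wild type) and 8.42 ± 0.21 (HDAC9-/-; SD, n = 3). S100a9 read 10.64 ± 0.61 (wild type) and 11.65 ± 0.14 (HDAC9-/-; SD, n = 3). Camp and Ngp had larger differences of 1.41 and 1.38. The granulocyte precursor genes Mpo (4.21 and 4.47) and Elane (4.44 and 4.61) were dim in both genotypes. Elane was still higher without overlap, by 0.18 (unadjusted p = 0.0447, adjusted p = 0.557 by limma). Mpo differed by 0.26 with overlap. Whether the samples held granulocyte precursors was not tested. The mitotic and the myeloid score were both higher on the HDAC9-/- arrays, without overlap. HDAC9-/- replicate 3 had the highest mitotic score and the lowest myeloid score of its genotype. Single genes of the myeloid list differed in this. On HDAC9-/- replicates 1 to 3 Ltf read 8.22, 8.64 and 8.41, and S100a9 read 11.49, 11.75 and 11.70. Csf1r read 8.39, 8.28 and 7.01 there, and Lyz2 read 10.67, 10.66 and 9.24. The lowest mitotic score of all was that of wild type replicate 3, and the lowest myeloid score that of wild type replicate 1. The part of myeloid cells in the mitotic result was not tested.

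Markers of CD8 T and natural killer cells were positive for 8 of 11 with a median of 0.24, wild type scores of -0.23 to 0.05 and HDAC9-/- scores of -0.08 to 0.20; Eomes and Ccl5 differed by 0.24 and 0.30. Thymocyte markers were positive for 4 of 6 with scores of -0.16 to -0.00 and -0.16 to 0.34, where Dntt differed by 0.56 and Cd1d1 by -0.08, and the recombinase genes Rag1 and Rag2 were near the floor (means of 3.35 and 3.13 in wild type). B cell markers were positive for 5 of 9, with scores of -0.12 to 0.07 and -0.28 to 0.24; Pax5 and Cd79b differed by -0.23 and 0.23. Of germinal centre B cell markers 1 of 3 was positive (scores 0.02 to 0.05 and -0.10 to 0.02), with Bcl6 and Mybl1 at -0.22 and 0.11. Plasma cell markers were negative for 5 of 5 (-0.03 to 0.19 and -0.16 to -0.00), Jchain and Xbp1 by -0.47 and -0.18. Red cell precursor and platelet markers were positive for 2 of 9 (-0.00 to 0.06 and -0.11 to 0.02), with Car1 and Epor lower by -0.18 and -0.18. In wild type the red cell genes Hba-a1 and Klf1 were dim, at 3.63 and 4.34. Gata1 and Itga2b of the same list were brighter, at 7.51 and 6.60.

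The T cell markers themselves were level, positive for 3 of 9 with wild type scores of -0.02 to 0.05 and HDAC9-/- scores of -0.02 to -0.00; Cd5 and Cd247 differed by -0.11 and -0.075. Treg markers were positive for 5 of 10 (-0.11 to 0.08 and -0.06 to 0.11), with Itgae and Gpr83 at 0.22 and -0.28. Markers of effector Treg, the activated subset that holds most cycling Treg, were positive for 7 of 11 with a median of 0.022. Their scores did not overlap, with wild type at -0.10 to -0.01 and HDAC9-/- at 0.00 to 0.15, and Gzmb and Tnfrsf4 differed by 0.49 and 0.14. Resting T cell markers were positive for 4 of 9 (-0.09 to 0.18 and -0.15 to 0.07), with Il7r and S1pr1 lower by -0.22 and -0.19. None of the genes on these marker lists was called by limma. Over all genes 54% were positive, and 6.12% were higher and 2.62% lower at an unadjusted p below 0.05 by limma. Among the markers, 9 myeloid, 2 CD8 T or natural killer and 1 thymocyte marker were higher at that threshold. Lower were 1 each of the resting T cell, B cell, plasma cell and red cell lists. The part of any of them, or of the wider Gapdh 3-prime to 5-prime difference in HDAC9-/- samples, in the mitotic result was not tested.

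**Figure D5:**
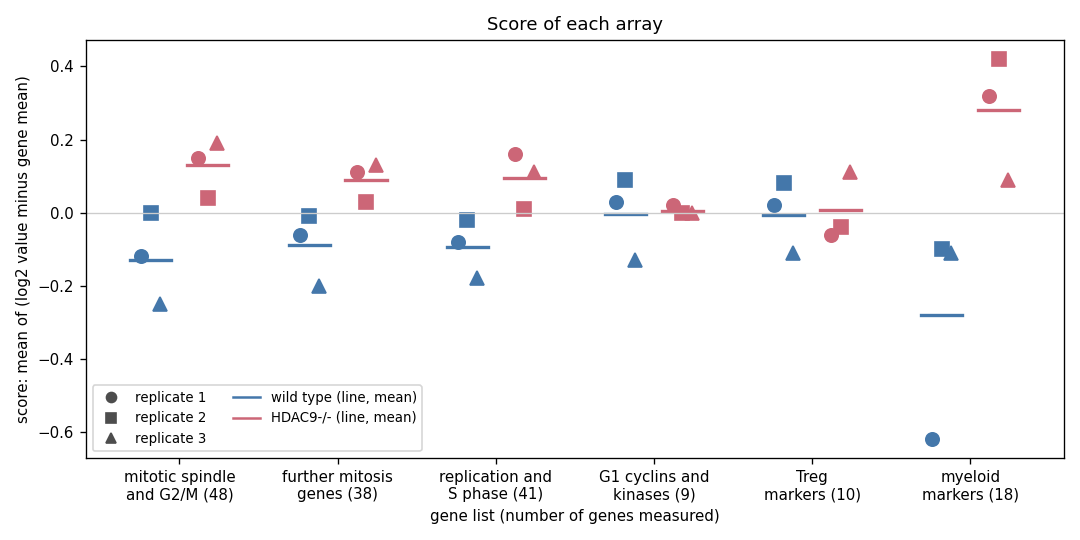
Score of each array (average deviation of a list's genes from their own 6-array means, log2) for 6 gene lists; symbols mark the replicate number, colours the genotype and lines the genotype means. The mitotic score is -0.25 to -0.00 on wild type and 0.04 to 0.19 on HDAC9-/- arrays, the Treg marker scores overlap, and the myeloid scores are spread the most.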

How the data were processed

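Values are those the authors deposited, 1 log2 value per probe set and array made with RMA per the submitters' processing notes; the sources used here do not give its version or settings. RMA pulls dim probe sets together and so understates their differences. Groups and replicate numbers come from the sample titles. The 64 control probe sets were left out of 22690, and 22626 entered 1 limma model (version 3.58.1, R 4.3.3; lmFit, eBayes, genotype alone, no brightness filter), with Benjamini-Hochberg adjustment over all. Of these 20380 carry 1 symbol, 691 several and 1555 none in the platform annotation; 20351 symbols were updated by Entrez identifier through RefSeq (GRCm38.p6).

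The members and lists were chosen with earlier results of these data known. Values per array are given for Mki67, Top2a, Cdk1 and Foxm1, in each role group for the 2 members with the smallest and the 1 with the largest p, and for negative members (Ccnb2 by mean, SD and its nearest arrays); in other lists the 2 genes with the smallest p are named. Other genes named (Ube2c and other members by range, Foxp3, Cd3e, Cd4, Camp, Ngp, Mpo, Elane, Rag1, Rag2, Hba-a1, Klf1) were chosen after their values were seen. So were Ikzf2, S100a8, Gzma, Csf1r, Lyz2, Gata1, Itga2b and the wild type values of Ttk. The model was tested on simulated data. Of 50 probe sets changed by 0.5, 26% were called, and of 50 changed by 1, 74% were. Among the unchanged probe sets 9 were called. Changes as small as the members' median of 0.27 were not simulated. The simulated noise was independent for each probe set and held no variation shared by an array, so these rates need not hold for the real arrays. Alternatives were 2 normalizations, a brightness filter, a trended robust prior, array weights, the replicate block, leaving out each array, other probe set choices and an adjusted p of 0.10. Figures were drawn with matplotlib 3.10.9.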

Additional observations from a re-analysis of the deposited data

How the results depend on the processing

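No member was called under any alternative run, an adjusted p of 0.10 included. The number of positive members was 39 of 41 with dim probe sets left out, 44 of 48 with gene means over all probe sets and 45 to 47 with 1 array left out. The median difference was 0.25 with quantile normalization again or with array medians aligned, 0.22 with the mean of all probe sets, 0.19 with array weights and 0.21 to 0.32 with 1 array left out, and the score difference ran from 0.19 to 0.31 with 1 array left out. Members above wild type without overlap numbered 23 with the mean of all probe sets and 25 with either normalization, and members higher at an unadjusted p below 0.05 numbered 17 (without HDAC9-/- replicate 3) to 29 (trended robust prior). With the replicate number as a block, 22 members were higher at an unadjusted p below 0.05 and 0 were called. Deviations of same-numbered samples correlated at 0.04, 0.10 and -0.25, and those of differently numbered samples at -0.35 to 0.28. With 3 arrays a group, each centred on its group mean, this cannot decide whether the numbers pair the samples. Among named members, the sign turned for Cenpe without wild type replicate 2 (0.06, in a range of -0.63 to 0.06 over left-out arrays), for Smc2 without wild type replicate 2 (0.025) or HDAC9-/- replicate 2 (0.053, in a range of -0.072 to 0.053), and for Prc1 with the mean of its probe sets (-0.0065). The number of arrays, 3 a group, limits the precision of each member, and signal over background was not tested for dim probe sets.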
